A study of Mus musculus with 6 samples.

Results

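Nr2f1, Nr2f2, Maf, Tcf21, Meis1 and Meis2 are transcription factor genes known from the progenitors that lie between the testis cords, the interstitial cells of the fetal gonad. Their probes were found by matching the transcript identifier of every gene probe on the array to a RefSeq gene table, which gave 7 probes of 39429, 2 for Nr2f1 and 1 for each of the other 5 genes. In that table (GRCm38.p6), Nr2f1 lies at chr13:78188971-78198873, Nr2f2 at chr7:70351946-70366746, Maf at chr8:115703253-115706894, Tcf21 at chr10:22817263-22820143, Meis1 at chr11:18880428-19019651 and Meis2 at chr2:115861264-116067537. The soma group holds 3 samples of gonadal somatic cells from the genital ridges of male E13.5 embryos (E, embryonic day) of the background MCH x C57BL6/J that carry the transgene Oct5<delta>PE-GFP. The ESC group holds 3 samples of VR15, 1 male embryonic stem cell line that carries Vasa::RFP. Both groups thus carry a reporter of the germ line, and no treatment is labelled. RNA of each sample was hybridised to its own Agilent array with 1 dye, and the values are processed signals in intensity units, corrected for background within the array. The labels call the samples biological replicates without naming separate litters or cultures, so p-values measure the spread between these samples, which may be technical.

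NR2F1 and NR2F2, also called COUP-TFI and COUP-TFII, are orphan nuclear receptors that bind DNA as dimers and often repress their targets. MAF is a leucine zipper factor of the large MAF class, TCF21 is a basic helix-loop-helix factor that pairs with E proteins, and MEIS1 and MEIS2 are homeodomain factors of the TALE class that bind DNA together with PBX and HOX proteins. In the mouse fetal testis, NR2F2, MAF and TCF21 are known from interstitial and stromal cells, some of which become fetal Leydig cells, the makers of androgen.

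All 6 genes were higher in soma by limma's moderated test with Benjamini-Hochberg adjustment over 19675 genes, where 38.3% of all genes were higher in soma, 46.6% were lower and 85.0% changed in either direction. On all 6, the 3 soma arrays lay above the 3 ESC arrays, as they did for 39.5% of all genes. Of the 19675, 5467 had no gene symbol and were counted as genes under the array's own identifier. The limma differences, soma minus ESC on the log2 scale, ran from 5.26 for Meis2 to 8.98 for Nr2f2. A gene was tested when the extraction software had marked a probe of it as well above background throughout at least 1 group. All 6 genes passed that filter. Nr2f1, Meis1 and Meis2 passed in both groups, whereas Nr2f2, Maf and Tcf21 passed through soma only, so the filter took them in by their high group. A log2 difference of at least 5 with an adjusted p under 0.05 was found for 433 of the 19675 genes (2.20%), a limit chosen after the values were seen. In RNA from many cells, fewer cells of a type and less RNA per cell cannot be told apart.

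**Figure D1:**
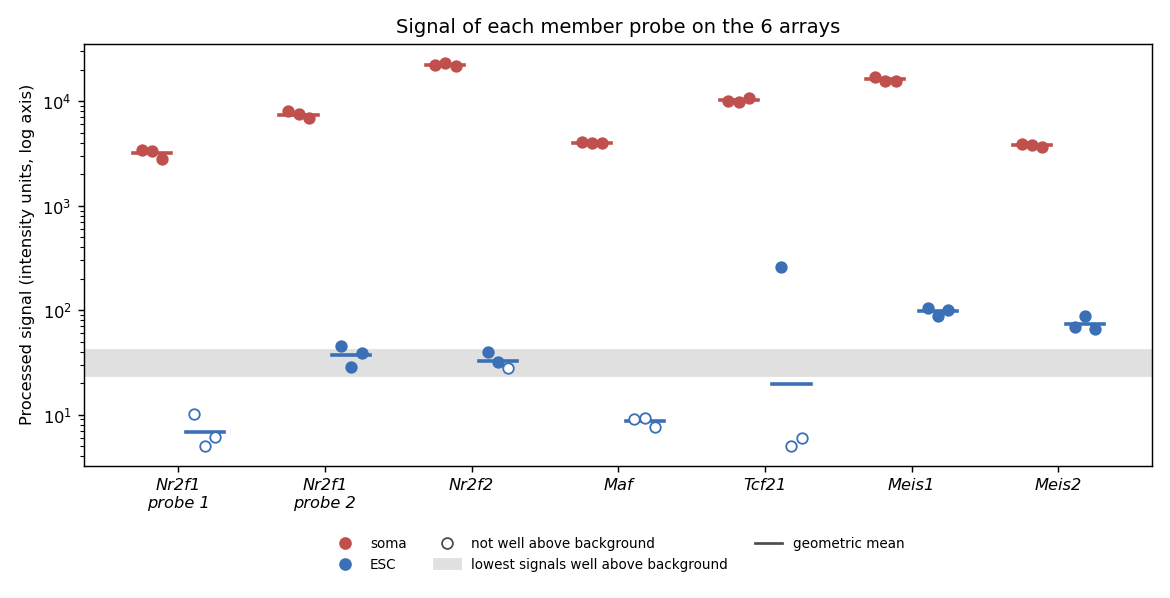
Processed signal (intensity units, log axis) of the 7 probes on each of the 6 arrays (Nr2f1 probe 2 is the brighter one), soma left and ESC right for each probe, with the geometric mean of each group as a line. Open points were not well above background, and the grey band spans the lowest signal well above background on the 6 arrays (23.4 to 41.6). Every soma point lies above every ESC point, and Tcf21 is the only probe on which the 3 ESC arrays are far apart.

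Nr2f2, known from interstitial and stromal cells, gave a signal of 22303, 23179 and 21926 on soma 1 to 3, against 40.2, 31.6 and 28.2 on ESC 1 to 3. The soma arrays hardly differed, and the groups did not overlap. ESC 3 was not well above background, and the other two ESC arrays were marked so at low signals. The difference was 8.98 ± 0.12 (SE, n = 3 per group), or 507-fold, with a limma adjusted p of 1.56e-07. Under normexp, an alternative background correction with an offset of 50, it was 7.30.

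Nr2f1 was read by 2 probes of the same transcript. The brighter probe, A_55_P2074281, gave 8057, 7534 and 6864 on soma 1 to 3, against 45.8, 28.5 and 38.9 on ESC 1 to 3, all of them well above background. Its difference was 7.23 ± 0.17 (SE, n = 3 per group), or 150.1-fold, with a limma adjusted p of 4.77e-07. The other probe, A_66_P114782, gave 3409, 3331 and 2833 on soma 1 to 3, against 10.3, 5.02 and 6.10 on ESC 1 to 3, none of which passed that mark. Nr2f1 by that probe was at least 84.6-fold higher in soma. Such a bound replaces each dim signal by the lowest one well above background on its array, unless the dim signal is higher. Under normexp the differences were 5.79 for the brighter probe and 4.98 for the other, the latter below its bound (6.40 on the log2 scale). All bounds given here are for the processed signal.

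The 250 bases upstream of a RefSeq start are shown for the paralog pairs. Both members of each pair were higher in soma, while these stretches differ widely in base composition. For Nr2f1 and Nr2f2 that start is the outer end of the gene span given above. The Meis1 and Meis2 stretches lie inside their gene spans, upstream of internal starts. They come from RefSeq (GRCm38.p6), all from the minus strand and written 5′ to 3′. Capitals mark E-boxes (CANNTG), the class of site that factors like TCF21 bind with E proteins.
Nr2f1, chr13:78198874-78199123: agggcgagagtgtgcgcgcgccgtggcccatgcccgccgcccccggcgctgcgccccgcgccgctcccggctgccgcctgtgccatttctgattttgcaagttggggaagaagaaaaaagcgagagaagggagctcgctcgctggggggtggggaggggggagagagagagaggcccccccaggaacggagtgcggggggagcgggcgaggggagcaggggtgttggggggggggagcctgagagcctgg
Nr2f2, chr7:70366747-70366996: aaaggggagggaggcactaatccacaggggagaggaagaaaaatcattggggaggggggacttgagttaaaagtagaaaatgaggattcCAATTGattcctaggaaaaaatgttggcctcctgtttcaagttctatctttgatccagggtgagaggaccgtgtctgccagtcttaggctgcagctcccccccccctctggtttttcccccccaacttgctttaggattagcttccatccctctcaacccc
Meis1, chr11:19018970-19019219: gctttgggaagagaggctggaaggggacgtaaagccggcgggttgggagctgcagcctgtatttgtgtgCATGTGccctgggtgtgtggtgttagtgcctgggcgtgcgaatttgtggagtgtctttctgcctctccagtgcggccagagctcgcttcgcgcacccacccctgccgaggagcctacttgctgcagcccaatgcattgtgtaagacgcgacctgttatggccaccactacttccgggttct
Meis2, chr2:116064620-116064869: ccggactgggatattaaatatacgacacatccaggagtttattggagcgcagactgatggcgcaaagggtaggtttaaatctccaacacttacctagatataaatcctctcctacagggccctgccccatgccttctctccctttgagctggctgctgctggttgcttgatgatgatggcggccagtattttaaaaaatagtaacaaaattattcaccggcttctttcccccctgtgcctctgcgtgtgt

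The Nr2f1 stretch had 72% G and C and 22 CpG dinucleotides, the Nr2f2 stretch 50% and 1, Meis1 59.6% and 13, and Meis2 47.6% and 7, against medians of 52.4% and 6 over 32851 such windows. The table holds windows for 5 of the 6 genes, 6 in all. The second window of Nr2f1, at another start, had 39.6% G and C, 2 CpG dinucleotides and 2 E-boxes, so the composition given for Nr2f1 depends on the start used. For Meis1 and Meis2 only the window of an internal start was available, so their outer starts were not read. Both strands were searched for 7 motifs, which may overlap. E-boxes lay in 3 of the 6 windows and in 66.2% of all windows. The nuclear receptor half-site AGGTCA lay in 0 of the 6 and in 14.02% of all windows. The MEIS motif TGACAG lay in 0 of the 6 and in 15.9% of all windows. The MAF half-site TGCTGA lay in 0 of the 6 and in 16.1% of all windows. Of the general promoter motifs, the GC box GGGCGG lay in 1 of the 6 and in 32.7% of all windows. The CCAAT box lay in 3 of the 6 and in 33.9% of all windows. The TATA box TATAAA lay in 1 of the 6 and in 12.4% of all windows. Letters that match are no evidence of binding, and their absence says only that they are not in these 250 bases.

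Maf encodes a factor that interstitial cells share with macrophages. Its probe gave 4068, 4024 and 3947 on soma 1 to 3, against 9.07, 9.21 and 7.68 on ESC 1 to 3. The soma arrays hardly differed, and no ESC array was well above background. Before any correction the Maf spot read 74, 73.5 and 74 on ESC 1 to 3, where the 95th percentile of the negative control spots was 84.4, 75.4 and 81. On the processed signal, Maf was at least 106.7-fold higher in soma, a bound of 6.74 on the log2 scale. The fitted difference of 8.43 is no bound and had a limma adjusted p of 1.47e-07, with all ESC values dim. Under normexp the difference was 4.98, below that bound.

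Tcf21, which mouse studies place in the mesenchyme of the gonad and of many other organs, gave 10157, 9929 and 10668 on soma 1 to 3, against 258, 4.97 and 5.97 on ESC 1 to 3. ESC 1 was well above background and ESC 2 and 3 were not, yet the soma arrays all stood above ESC 1. The difference was 8.60 ± 1.53 (SE, n = 3 per group), with a 95% interval of 4.80 to 12.39 and a limma adjusted p of 0.00227. Without ESC 1 the fitted difference was 10.43 (adjusted p 3.08e-06), and soma was then at least 293-fold above ESC 2 and 3, while against ESC 1 alone (n = 1) it was 30.5-fold higher. Tcf21 had the largest excess of ESC 1 over both other ESC arrays (5.35) among 22081 probes well above background on ESC 1. An excess over 3 was found for 100 such probes on ESC 1, 66 on ESC 2 and 96 on ESC 3, so isolated high spots occurred on each array. The spot carried no outlier mark. Of 79 gene spots within 4 rows and columns of it, 4 (5.06%) stood over 3 above the mean of ESC 2 and 3, against 0.37% of all gene spots. The 18 other interstitial and stromal genes, described further on, differed between ESC 1 and the mean of ESC 2 and 3 by -0.36 to 0.68 (median 0.12). The part of the neighbouring spots in the ESC 1 value was not tested.

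Meis1 had a signal of 17067, 15785 and 15697 on soma 1 to 3, against 105, 88.7 and 101 on ESC 1 to 3. Meis2 had 3940, 3850 and 3622 on soma 1 to 3, against 69.0, 88.4 and 66.3 on ESC 1 to 3. Both genes, whose products act as partners of PBX and HOX proteins, were well above background on all 6 arrays, with no overlap between the groups. Meis1 differed by 6.94 ± 0.08 (SE, n = 3 per group), or 123-fold, and Meis2 by 5.26 ± 0.12 (SE, n = 3 per group), or 38.2-fold, with limma adjusted p of 1.52e-07 and 4.79e-07. Uncorrected, the Meis1 spot read 157, 141 and 155 and the Meis2 spot 144, 156 and 134 on ESC 1 to 3. These readings lay above the 95th percentile of the negative controls of the same array, so ESC had a measurable signal for both. Meis2 was the member with the smallest difference.

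By 95% intervals of the fit, Nr2f2 (8.70 to 9.27) stood above Nr2f1 on its brighter probe (6.82 to 7.64) and Meis1 (6.73 to 7.14). Meis2 (4.95 to 5.56) stood below them. The intervals of the brighter Nr2f1 probe and of Meis1 overlapped, and that of Tcf21 was too wide to place. The other Nr2f1 probe, fitted at 8.44, has only a bound, 6.40. By that probe Nr2f1 has no order against Nr2f2 and Meis1. Maf has only a bound, 6.74 on the log2 scale, which places it above Meis2 and gives it no order among the others. Under normexp the order was Nr2f2 at 7.30, Tcf21 at 6.11, Meis1 at 6.02, Nr2f1 at 5.79, Maf at 4.98 and Meis2 at 4.30, with adjusted p of at most 2.91e-05. Nr2f2 was again above Nr2f1 and Meis1, and Meis2 below them.

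**Figure D2:**
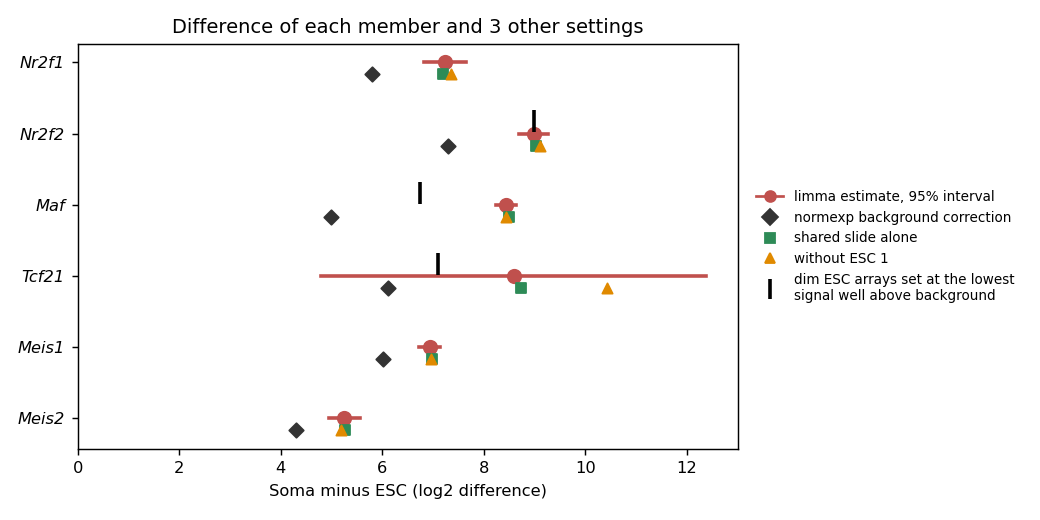
Soma minus ESC difference (log2) of each gene, as a point with its 95% interval, with the values under normexp, on the shared slide alone and without ESC 1 beside it. A black bar gives the difference with dim ESC arrays set at the lowest signal well above background, for the 3 genes that had such arrays. Every value lies above 0, the normexp values are the lowest, and the interval of Tcf21 runs from 4.80 to 12.39.

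One slide, read in 1 scan, carried soma 1 and 2, while soma 3 lay on the slide of the 3 ESC arrays but was scanned apart from them. The groups were never scanned together, and scan and group therefore cannot be told apart. On the shared slide, with soma 3 as the only soma array (n = 1, assumed to vary as the others do), the differences were 9.04 for Nr2f2, 8.50 for Maf, 8.74 for Tcf21, 7.19 for Nr2f1, 6.98 for Meis1 and 5.27 for Meis2. The largest adjusted p there was 0.0448, for Tcf21. The 75th percentile of the signal was 1245 to 1388 on soma arrays and 959 to 1016 on ESC arrays, and between 56.0% and 63.2% of probes were well above background. No gene spot was saturated. Over all genes the median difference was -0.14, and it moved by 0.12, -0.20 and 0.22 under quantile normalization, median scaling and spike-in scaling.

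The relatives and partners of the 6 factors moved in both directions. Of 9 other TALE homeodomain genes, 5 were higher in soma, 2 were lower and 2 did not pass, with a median of 0.58 beside the -0.14 of all genes. Pknox2, a TALE gene of the PREP class, was higher by 5.35 ± 0.11 (SE, n = 3 per group), on the scale of Meis2. Meis3, the third gene of the MEIS class, was higher by 1.32, and its other probes gave 2.15 and 2.86. The last of these is a fitted value and no bound, since that probe was dim on all ESC arrays. Among the PBX partners, Pbx2 was higher by 1.26 and Pbx3 by 1.21. Pbx4 was at least 2.95-fold lower in soma, where its probe was dim throughout. Tgif1, a TALE repressor of TGF-beta signalling, fell by 2.09. The TALE counts were 6 higher and 3 lower under quantile normalization and 5 and 3 under scaling to the array median.

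Among nuclear receptors of the NR2 family, 3 of 5 were tested and all 3 were higher in soma (median 0.67), as they were under each other scaling. Nr2f6, the third gene of the NR2F class, was higher by 0.40 ± 0.06 (SE, n = 3 per group), far less than Nr2f1 and Nr2f2. Nr2c2 was higher by 0.67, and Nr2c1 by 1.44 on its brightest probe and -0.11 on its other probe. Nr2e1 and Nr2e3 did not pass the filter on dim probes. Of 5 cofactors known to bind NR2F proteins, 4 were higher in soma and 1 was lower (median 0.83). Zfpm2, which encodes FOG2, a partner of GATA4 in gonad formation, was higher by 5.41 ± 0.12 (SE, n = 3 per group) and by 5.48 on its other probe. Bcl11b was higher by 1.67. Ncor1, the member that fell, had -0.36, and under spike-in scaling it did not pass (-0.14).

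In the MAF family, 2 of 5 tested genes were higher in soma and 3 were lower (median -0.33). Of the small MAF genes, whose products lack an activation domain, Mafk was higher by 0.96, while Mafg was lower by 0.88 and Maff by 0.76. Under spike-in scaling Mafa no longer passed as lower (-0.11). Of 9 tested relatives and partners of Tcf21, 8 were higher and 1 was lower (median 2.36). Tcf23, a helix-loop-helix gene, was at least 84.7-fold higher in soma. Twist1, a factor of mesenchyme, was higher by 3.35 and Tcf12, an E protein gene, by 2.62. Tcf15, a factor of the paraxial mesoderm, fell by 3.33. The E protein gene Tcf3 was higher by 0.35 but did not pass under scaling to the array median (0.16).

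All 18 interstitial and stromal genes that were tested beside the 6 factors were higher in soma (median 5.02), and their choice was made with earlier results of these data known. Pdgfra, a growth factor receptor gene of interstitial progenitors, was higher by 6.91 ± 0.13 (SE, n = 3 per group) and the chemokine gene Cxcl12 by 6.62 ± 0.08 (SE, n = 3 per group). The smallest difference was that of the hedgehog effector Gli2 (0.49), which did not pass under scaling to the array median (0.29). The summed signal of the list was 338 to 386 times the array's 75th percentile on soma arrays, against 19.3 to 21.2 times on ESC arrays.

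**Figure D3:**
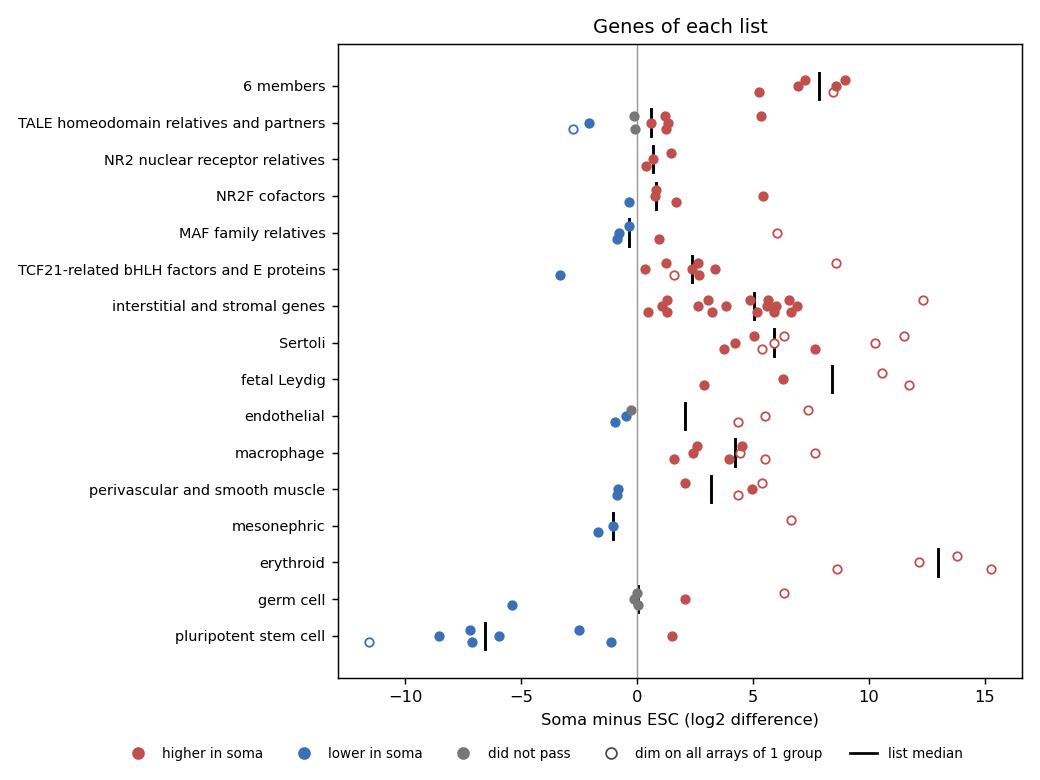
Soma minus ESC difference (log2) of every tested gene in each list, with red points higher in soma, blue points lower, grey points that did not pass, and open points for genes that were dim on all arrays of 1 group. Black bars are list medians. The 6 factors and the interstitial and stromal genes lie right of 0, while TALE, NR2F cofactor, MAF and TCF21-related genes lie on both sides.

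The soma samples hold several cell types in which some of the 6 factors are also known, among them macrophages for Maf and vessel cells for Nr2f2 and Meis genes. All 8 tested macrophage genes of 9 were higher in soma, with a summed signal of 7.55 to 8.07 times the 75th percentile on soma arrays, against 0.84 to 1.12 times on ESC arrays. Cx3cr1 and C1qc were at least 54.9-fold and 23.05-fold higher. Of 6 endothelial genes 3 were higher, 2 were lower and 1 did not pass, with sums of 4.73 to 6.63 on soma arrays, against 4.99 to 5.39 on ESC arrays. The number lower was 3 under median scaling and 1 under spike-in scaling. The gene that did not pass was Kdr, a VEGF receptor gene, with -0.26 on its brightest probe, which alone read 3.14 to 4.93 on soma arrays and 4.59 to 5.05 on ESC arrays and so makes up most of both sums. The other kept probe of Kdr was higher by 4.09 in soma, so its probes disagree and these sums do not measure vessel cells. Cdh5 and Emcn were at least 36.9-fold and 11.2-fold higher. Of 6 perivascular and smooth muscle genes 4 were higher and 2 were lower. Their sums were 46.8 to 53.8 on soma arrays and 42.7 to 55.7 on ESC arrays. Acta2, Tagln and Mcam made up most of both sums. Acta2 was higher in soma, while Tagln and Mcam were the 2 that were lower, so these sums do not measure perivascular cells. Tagln, a smooth muscle gene with -0.85, did not pass as lower under quantile normalization (-0.32). Rgs5 was at least 15.5-fold higher in soma, and Cspg4 was higher there by 4.95. The part of these cells in the signal of the 6 factors was not tested.

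Other markers bore on the labels. All 9 Sertoli genes were higher in soma, with sums of 48.5 to 64.5 against 0.71 to 0.80 in ESC, led by Cst9 and Defb19 (at least 827-fold and 323-fold). All 4 tested fetal Leydig genes of 5 were higher, with sums of 78.8 to 80.02 against 3.04 to 3.48, led by Hsd3b1 and Cyp11a1 (at least 1459-fold and 391-fold). Cyp17a1 alone read 2.98 to 3.42 on ESC arrays, so the ESC sum rests mostly on that gene. All 4 tested erythroid genes of 5 were higher, with sums of 531 to 547 against 0.032 to 0.044, led by Hbb-y and Hba-a1 (at least 10450-fold and 7284-fold). Of 8 genes of pluripotent stem cells 7 were lower in soma, with sums of 3.33 to 3.95 against 143 to 164 in ESC. They were led by Fgf4 (at least 797-fold lower) and Zfp42 (-8.54). Nanog was the exception at 1.50, but its probe read only 0.11 to 0.14 in ESC and 0.31 to 0.44 in soma. Zfp42 read at least 42.6 on each ESC array. How well the Nanog probe reads its transcript was not tested, so the direction holds for this probe only. Of 6 germ cell genes 2 were higher, 1 was lower and 3 did not pass. Their sums were 3.71 to 7.15 in soma and 10.1 to 10.8 in ESC. Sycp3 fell by 5.40 and alone read 6.14 to 6.66 in ESC, most of that sum, so these sums do not compare germ cells. Nanos2 was at least 16.2-fold higher in soma, with 0.27, 0.49 and 0.75 on soma 1 to 3. The share of germ cells in each soma sample was not tested. Of 3 tested mesonephric genes of 4, 1 was higher and 2 were lower, with sums of 0.80 to 0.85 in soma and 0.19 to 0.20 in ESC. Emx2 was at least 26.5-fold higher in soma, and Lhx1 fell by 1.67. Emx2 alone read 0.72 to 0.78 on soma arrays, most of that sum, so these sums do not measure mesonephric cells.

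For each factor, the genes whose profile over the 6 arrays lay nearest were found among 14193 genes, by the root mean square difference of log2 values after each gene was centred on its mean. These 6 arrays fall into 2 groups, so the measure mostly reads the size of the group difference. Nr2f2 lay nearest to Clca3a2 (0.06) and Ednra (0.09), an endothelin receptor gene. Nr2f1 lay nearest to Gpr37 (0.08) and Cdh5 (0.09), Maf to Mrvi1 (0.08) and Sparcl1 (0.14), Meis1 to Gsg1l (0.08) and Trpc6 (0.10), and Meis2 to Zfp467 (0.08) and Aldh1a2 (0.08), an enzyme gene of retinoic acid synthesis. Tcf21 had no close match, with Robo2 nearest at 1.13.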

How the data were processed

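Feature Extraction 10.7.3.1 made the scanner files, per the file headers, and the authors deposited the processed signal as an intensity, which that software had corrected for background and for spatial and multiplicative trends. The authors' deposited series matrix holds log2 values, found here to be the same signals less each array's 75th percentile and each probe's median (at least 99.96% of 39429 probes within 0.01), and served as an alternative. Here log2 processed signals were scaled by each array's 75th percentile. Control spots and marked outliers were left out, 24155 probes were kept, and the brightest kept probe stood for a gene. Gene names came from a GRCm38.p6 table, which named 66.1% of probes. The array's grid was annotated on mm9, and probe sequences were not used here, so cross-hybridisation between paralogs was not checked.

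The contrast soma minus ESC was fitted with limma 3.58.1 (R 4.3.3) and tested two-sided, with Benjamini-Hochberg adjustment at 0.05. The method was tested on simulated data. Precision is limited by the number of arrays. The 6 genes and all lists were chosen with earlier results of these data known. The 6 genes are all described, and from each list the genes with the largest passing differences are named (3 from lists of relatives and stromal genes, 2 from marker lists), with the family genes Meis3, Pbx2, Pbx3, Pbx4 and Nr2f6. Some genes that this rule names are not reported here. Tcf12, Tcf3, Gli2, Ncor1, Mafa, Maff, Nr2e1, Nr2e3, Nanog, Kdr, Tagln, Acta2, Mcam and Cyp17a1 were named after their values were seen. Normexp (offset 50) was run on median signals, since mean signals are not among the values used.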

Additional observations from a re-analysis of the deposited data

How the results depend on the processing

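All 6 factors stayed higher in soma with an adjusted p under 0.05 in every setting that could test them. Planned settings were 3 other scalings, normexp, no filter, probe means in place of the brightest probe, the authors' matrix, robust estimation with a variance trend, slide blocks (fixed and random), the slide that held both groups, a replicate block and leaving out single arrays, and the scan as a random block was added after the data were seen. The scan block cannot test the scan, since no scan held both groups. Nor are all settings separate checks. The fixed slide block gave the same differences as the shared slide (7.19 for Nr2f1 in both), and the authors' matrix holds the same signals. Requiring a signal well above background on all 6 arrays left 3 factors tested (Nr2f1, Meis1 and Meis2), and 3 of 3 were higher. Normexp gave the lowest difference for each of the 6 and moved all of them by over 1.5-fold, to values between 4.30 for Meis2 and 7.30 for Nr2f2. The move was smallest for Meis1, from 6.94 to 6.02 on the log2 scale, and largest for Maf, from 8.43 to 4.98. The cause was not tested. With each array left out, differences ran from 7.61 to 10.43 for Tcf21, where ESC 1 decides the value, and from 5.18 to 5.39 for Meis2. No pairing by replicate number was seen. Deviations of same-numbered arrays correlated at -0.05, 0.07 and 0.03, and those of differently numbered arrays at -0.08 to 0.05. Such correlations among 3 arrays per group cannot show whether a pairing exists. With the replicate block 16481 genes changed, against 16714 without it, and 6 factors were higher. Signals near the lowest one well above background limit every fold change against ESC.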
